A study of Mus musculus with 2 samples.

Results

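The aquaporins are a family of membrane channels, and 7 of them are described here: Aqp1, Aqp3, Aqp4, Aqp7, Aqp8, Aqp9 and Aqp11. They were taken by gene symbol from 33083 genes counted in single cells of the mouse colon. Earlier results of these data were known when they were chosen. The study sequenced 1 library of a wild-type (WT) colon and 1 library of the colon of mice that model Alzheimer's disease (AD) through transgenes, named APP/PS1-21 in the design text. Colon pieces were digested with trypsin and DNase I and red cells were lysed, and the libraries hold stromal and immune cells beside the colonic epithelium that the design text names. APP/PS1 lines carry mutant human amyloid precursor protein and presenilin 1 transgenes, and in the APP/PS1-21 line both are driven by the neuronal Thy1 promoter. Age, sex and the number of animals behind each library are not given in the labels, and neither is the stretch of colon taken. With 1 library per genotype there is no replicate check: each difference below describes a pair of libraries, no test was made, and the intervals are 95% and cover counting error only. Genotype and library cannot be told apart.

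Aquaporins form tetramers in which each subunit has its own pore. The classical members, here Aqp1, Aqp4 and Aqp8, pass water; the aquaglyceroporins, here Aqp3, Aqp7 and Aqp9, also pass glycerol; and Aqp11 is an unusual member of intracellular membranes. The colon takes up water behind absorbed salt, and in the mouse Aqp4 and Aqp8 are known from its surface epithelium while Aqp1 is known from endothelium and red cells. Aqp8 also passes hydrogen peroxide.

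The comparisons below turn most on Aqp8 in the epithelium and Aqp1 in the endothelium, so the bases before their starts are shown. Both sequences are from RefSeq, build GRCm38.p6, plus strand, read 5′ to 3′: chr7:123462044-123462293 for Aqp8 and chr6:55336049-55336298 for Aqp1, each the 250 bases upstream of the RefSeq transcript start. Capitals mark the matches to the motifs searched.
Aqp8: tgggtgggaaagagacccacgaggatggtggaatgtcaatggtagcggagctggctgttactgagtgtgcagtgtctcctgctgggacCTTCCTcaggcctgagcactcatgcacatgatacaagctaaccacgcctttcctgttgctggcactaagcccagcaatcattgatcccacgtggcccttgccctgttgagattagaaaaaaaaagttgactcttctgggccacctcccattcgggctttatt
Aqp1: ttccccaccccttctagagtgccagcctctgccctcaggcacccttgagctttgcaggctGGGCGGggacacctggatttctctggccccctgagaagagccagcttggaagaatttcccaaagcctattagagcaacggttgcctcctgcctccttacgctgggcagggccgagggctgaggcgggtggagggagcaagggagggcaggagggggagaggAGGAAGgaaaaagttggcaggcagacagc
The motifs searched on both strands were the ETS core AGGAAG, the GC box GGGCGG, the nuclear receptor half-site AGGTCA, the steroid receptor half-site AGAACA, the TATA box TATAAA, the CDX motif TTTATG and the GATA motifs AGATAA and TGATAA. The Aqp8 window held 1 ETS core, CTTCCT, starting 162 bases before the start. The Aqp1 window held a GC box 190 bases and an ETS core 29 bases before the start. Of 32851 such windows, 29.5% held the ETS core and 32.7% the GC box, so these matches are common, and a match is a description of letters, not of a binding site. The Aqp11 window held 1 nuclear receptor half-site, TGACCT, which 14% of windows hold. In the GRCm38 annotation Aqp8 spans chr7:123462291-123468004 and Aqp11 chr7:97724006-97738289, while Aqp3 (chr4:41092722-41098183) and Aqp7 (chr4:41033074-41048139) are near neighbours on the same strand.

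The WT library held 4146 barcodes with 26898149 UMIs (unique molecular identifiers, 1 per captured mRNA) and the AD library 6675 barcodes with 38731915 UMIs. Barcodes in which over 25% of the UMIs were mitochondrial made up 60.4% of the WT and 29.2% of the AD library, and this difference touches Aqp8 and Aqp4 directly (below). At the 25% limit 1546 WT and 4687 AD cells were kept, with median depths of 3714.5 and 3720 UMIs, of which 539 and 1460 lay in epithelial-like clusters. 7 barcodes occurred in both libraries. Clusters were made without any aquaporin gene and named "-like" from marker lists. The epithelial markers were present and high in the epithelial-like clusters (12127 and 12634 CPM, UMIs of a gene or list per 1000000 UMIs of the class, over 10 of 10 markers).

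Kept cells held 8221 Aqp4 UMIs in WT and 24994 in AD. Aqp1 gave 433 and 422, Aqp8 331 and 888, and Aqp11 148 and 369. The aquaglyceroporins were near the limit of detection, with 14 and 17 UMIs for Aqp3, 14 and 51 for Aqp7, and 18 and 32 for Aqp9. Among the other family members in the files, Aqp12 had 5 and 10 UMIs, the lens channel Mip 3 and 13, Aqp2 and Aqp5 0 and 3 each, and Aqp6 0 and 0. These are 3′ tags, so their numbers are compared between cells for 1 gene and not between genes.

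Aqp4, a water-selective channel best known from astrocyte end-feet, was found in absorptive and crypt epithelium and was scarce in secretory cells. Its level in WT was 2074 CPM (2007-2142) in colonocyte-like cells, 793 (712-880) in crypt stem-like cells and 551 (526-577) in cycling-like cells. In AD the same classes held 2410 (2366-2455), 673 (640-707) and 459 (421-500). The order was the same in both libraries, and no interval of these classes overlapped its neighbour's. Enteroendocrine-like cells held 133 in WT and 212 in AD, and goblet-like cells 17.3 and 44.5. Tuft-like cells gave 2 Aqp4 UMIs from 12 WT cells and 0 from 2 AD cells, too few for a level, and no UMI of any other member. At a mitochondrial limit of 50%, 113 WT and 28 AD tuft-like cells held 26 and 5 Aqp4 UMIs (80.4 and 95.9 CPM) and 18 and 0 Aqp8 UMIs, with the WT Aqp8 UMIs in 2.65% of the cells.

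**Figure D1:**
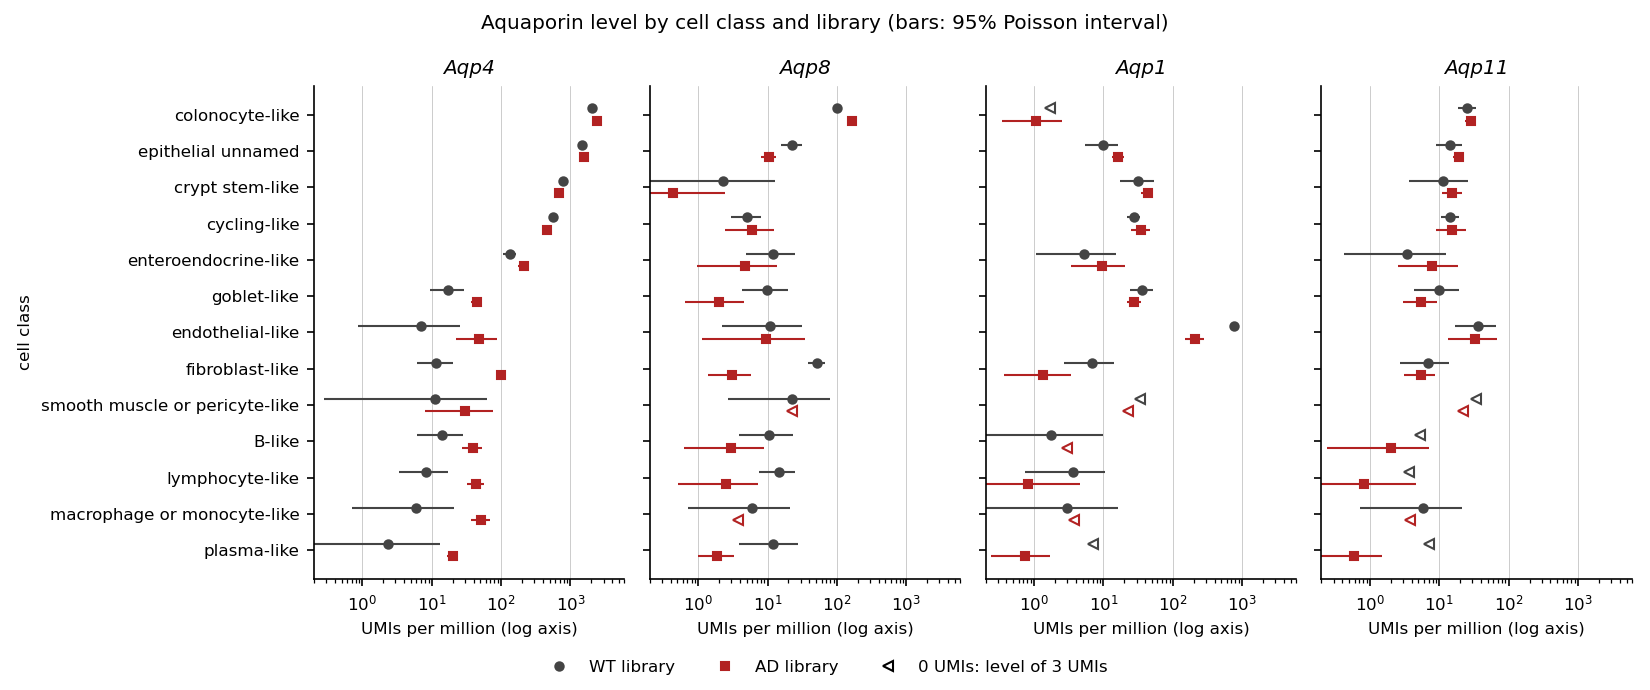
Level in CPM (log axis) of Aqp4, Aqp8, Aqp1 and Aqp11 in each cell class, with the WT library as circles, the AD library as squares and bars for the 95% Poisson interval; open triangles stand at the level of 3 UMIs where none was counted. Aqp4 falls from 2074 (WT) and 2410 (AD) in colonocyte-like cells to 17.3 and 44.5 in goblet-like cells, Aqp8 is highest in colonocyte-like cells, and Aqp1 is highest in endothelial-like cells among the classes drawn.

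Within the absorptive epithelium the Aqp4 level differed between clusters. The highest was in an unnamed epithelial cluster led by Cyp2c68, Il18, Hao2 and Cldn8, with 2929 CPM (2789-3075) in 22 WT cells and 3485 (3398-3573) in 110 AD cells. A UMI was seen in 100% of those WT cells and 99.1% of those AD cells. Next came a colonocyte-like cluster led by Cyp2c65, with 2229 and 3048. The colonocyte-like clusters led by Emp1 and by Tgm3 held 2004 and 1909, and 1527 and 2295, the Tgm3 levels from 12 WT and 142 AD cells. In these 4 clusters Aqp4 was higher in AD in 3 and slightly lower in the Emp1 cluster (the intervals there, 1905-2106 and 1842-1978, overlap). In the goblet-like cells the small cluster led by Zg16 held 43.5 CPM in 15 WT cells and 488 in 23 AD cells, while the larger one led by Retnlb held 13 and 13.5. The higher goblet level in AD lay in few cells: 5 cells held 69.9% of the 113 Aqp4 UMIs of the class.

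Over all epithelial-like cells Aqp4 stood at 962 CPM (942-983) in WT and 1342 (1325-1359) in AD, a log2 ratio of AD over WT of 0.48 (0.44-0.52). By class the log2 ratio was 0.22 (0.16-0.27) in colonocyte-like, 0.11 (0.05-0.18) in unnamed epithelial, -0.24 (-0.40 to -0.07) in crypt stem-like and -0.26 (-0.40 to -0.12) in cycling-like cells. The unnamed epithelial class is a mix: it pools clusters led by the fibroblast genes Dcn and Col3a1 (52 WT and 113 AD cells), by the plasma cell genes Jchain and Igha (17 and 109), by the antigen presentation genes H2-Ab1 and H2-Aa (10 and 10), by Reg4 and Best2 (12 and 152), by Foxq1 (27 and 140) and by Cyp2c68 (22 and 110). In each of these 4 classes the ratio was below that of the pooled epithelium, and in both crypt classes it went the other way. The ratio was above it in enteroendocrine-like (0.67, 0.26-1.10) and goblet-like cells, where the level was low. The larger of the cycling-like clusters, led by Ube2c, held 703 (671-737) and 780 (714-850), while a smaller one, led by Ccl9 and Pbk, was low in both (54.6 and 45.0) and made up 29 of 170 WT and 26 of 84 AD cells. The make-up of the pool differed: cycling-like cells were 170 of the 539 epithelial-like WT cells and 84 of the 1460 AD cells, colonocyte-like cells 92 and 345. Aqp4 was seen in 56.0% of WT and 66.0% of AD epithelial-like cells (median depths 10938 and 10252 UMIs), and in 32.6% (28.4-37.0) and 44.9% (42.3-47.6) after thinning each cell to 1000 UMIs. In plasma-like cells, which should lack it, the shares were 2.27% and 14.9%, and thinned 2.33% and 2.54% (median depths 9053.5 and 7640). A gene was counted as different where it differed at least 2-fold between libraries and had at least 30 UMIs in the class. Of the 4 members with enough UMIs in epithelial-like cells none passed that size, against 8.11% of 13223 genes. In goblet-like cells Aqp4 was over the size (log2 1.32), against 2.57% of 7563 genes higher, but not at a 50% mitochondrial limit (log2 0.88, 0.52-1.28) or with no limit (0.97). At a 10% mitochondrial limit the pooled Aqp4 ratio was -0.11 (-0.26 to 0.04), and with no limit 1.13. Reads of Aqp4 and of the gene annotated antisense to it cannot be told apart unless the counting used strand, which is not given in the sources used here.

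In the named classes outside the epithelium Aqp4 was low, and there the libraries differed more. All kept cells outside the epithelial-like clusters together held 42 Aqp4 UMIs in WT (10.9 CPM) and 951 in AD (67.9). Of these, 7 and 348 lay in 29 WT and 294 AD cells of unnamed clusters. Epithelial markers were high in those cells, at 6596 and 5086 CPM, so this pool is in part a mix. Aqp4 was over 2-fold higher in AD in the unnamed cells, as were 20.7% of 3105 genes. The named classes follow. The level was 11.7 and 99.8 CPM in fibroblast-like cells, 14.2 and 38.9 in B-like cells, and 8.40 and 43.0 in lymphocyte-like cells. It was 5.87 and 51.6 in macrophage or monocyte-like cells and 2.38 and 20.0 in plasma-like cells. Each of these 5 classes was over 2-fold higher in AD, against 4.26%, 4.93%, 6.45%, 7.79% and 10.6% of genes higher in the same classes. The WT side of these ratios was 12 UMIs in fibroblast-like, 8 in B-like, 7 in lymphocyte-like, 2 in macrophage or monocyte-like and 1 in plasma-like cells. The UMI minimum was thus met through the AD counts. The intervals of the fold ratio include 2-fold in B-like (1.27-6.82) and plasma-like cells (1.48-334), and lie above it in the rest. The B-like difference was not kept at other mitochondrial limits: the log2 ratio of 1.39 was 0.28 (-0.36 to 0.98) at 50% and -0.41 (-1.17 to 0.36) with none. The summed level of the 10 epithelial markers in the same cells was also higher in AD, at 595 and 1025 CPM in fibroblast-like cells, 391 and 520 in B-like, 379 and 729 in lymphocyte-like, 437 and 766 in macrophage or monocyte-like and 380 and 400 in plasma-like cells. Per 1000 epithelial-marker UMIs, AD non-epithelial classes held 97.3 (fibroblast-like), 74.9 (B-like), 67.3 (macrophage or monocyte-like), 59.0 (lymphocyte-like) and 49.9 (plasma-like) Aqp4 UMIs, against 106 in AD epithelial-like cells. In WT the same classes held 19.6, 36.2, 13.4, 22.2 and 6.25, against 79.3 in the epithelium. These WT values come from 12, 8, 2, 7 and 1 Aqp4 UMIs. Their intervals overlap one another, from 0.158-34.8 in plasma-like to 15.6-71.3 in B-like cells. Except in fibroblast-like and plasma-like cells they also overlap the AD intervals of the same class. In AD fibroblast-like cells 5 of 788 cells held 60.1% of the 296 Aqp4 UMIs. The part of epithelial RNA in these values was not tested.

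Aqp8, a channel for water and hydrogen peroxide, was found mainly in colonocyte-like cells. They held 176 UMIs in WT and 767 in AD, or 100.9 (86.5-117) and 165 (153-177) CPM, while every other named epithelial class was at 12.1 or below in both libraries. Its level was not even among colonocyte-like clusters. The clusters led by Emp1 and Tgm3 held 183 and 152 in WT and 279 and 196 in AD, while the Cyp2c65 cluster, with more Aqp4, held 16.8 and 15 and the Cyp2c68 cluster 17.9 and 13.6. Most WT colonocyte-like cells were in the Emp1 cluster (47 of 92). The largest number of AD ones was in the Tgm3 cluster (142 of 345), which had only 12 WT cells. Aqp8 thus made up 8.35% (WT) and 12.8% (AD) of the Aqp4 and Aqp8 UMIs in the Emp1 cluster, but 0.748% and 0.488% in the Cyp2c65 cluster.

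At the 25% limit, Aqp8 in colonocyte-like cells had a log2 ratio of AD over WT of 0.71 (0.47-0.95), and in all epithelial-like cells 0.73 (0.52-0.94), from 28.7 and 47.5 CPM. In colonocyte-like cells 0 of the 3 members with enough UMIs passed 2-fold, against 4.89% of genes. The share of colonocyte-like cells with an Aqp8 UMI was not higher in AD: it was 48.9% in WT and 46.1% in AD (median depths 19190 and 11766), and 15.7% (8.61-25.3) and 13.2% (9.76-17.2) when thinned. In lymphocyte-like cells, which should lack it, the shares were 4.92% and 0.595%, and thinned 3.08% and 0.701% (median depths 3169 and 2103.5). The pooled ratio was 0.01 (-0.20 to 0.23) once cells above 30000 UMIs were left out, which took the epithelial-like WT cells from 539 to 472. In the mixed unnamed epithelial class Aqp8 stood at 22.6 and 10.5 CPM (log2 -1.12), past 2-fold lower, as were 1.56% of genes. Within it Aqp8 was 35.3 and 73.4 CPM (7 and 26 UMIs) in the cluster led by Dcn, 17.9 and 13.6 (10 and 24 UMIs) in that led by Cyp2c68, and rested on 9 or fewer UMIs per library in each of the other 4.

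Most Aqp8 UMIs of the WT library lay beyond the 25% limit. In all barcodes, WT held 4983 Aqp8 UMIs and AD 1416. In WT 4649 of them, 93.3%, were in barcodes above 25% mitochondrial UMIs, against 37.3% in AD. For Aqp4 the same shares were 31.3% and 14.7%. In CPM, WT Aqp8 was 9.04 up to 10% mitochondrial UMIs, 37.2 from 10% to 25%, 292 (281-303) from 25% to 50% and 392.4 (375-410) above 50%. In AD the values were 4.03, 56.7, 86.0 (78.2-94.4) and 54.0 (43.1-66.9). From 10% to 25% AD was the higher library, and above 25% both WT intervals lay above both AD intervals. Per 1000000 nuclear-encoded UMIs, which leaves the mitochondrial UMIs out of the total, the WT values were 464 from 25% to 50% and 1030 above 50%, against 133 and 135.1 in AD. Aqp4 had its peak from 10% to 25% in both, at 995 and 1608 CPM, and was lower in WT than in AD above that.

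**Figure D2:**
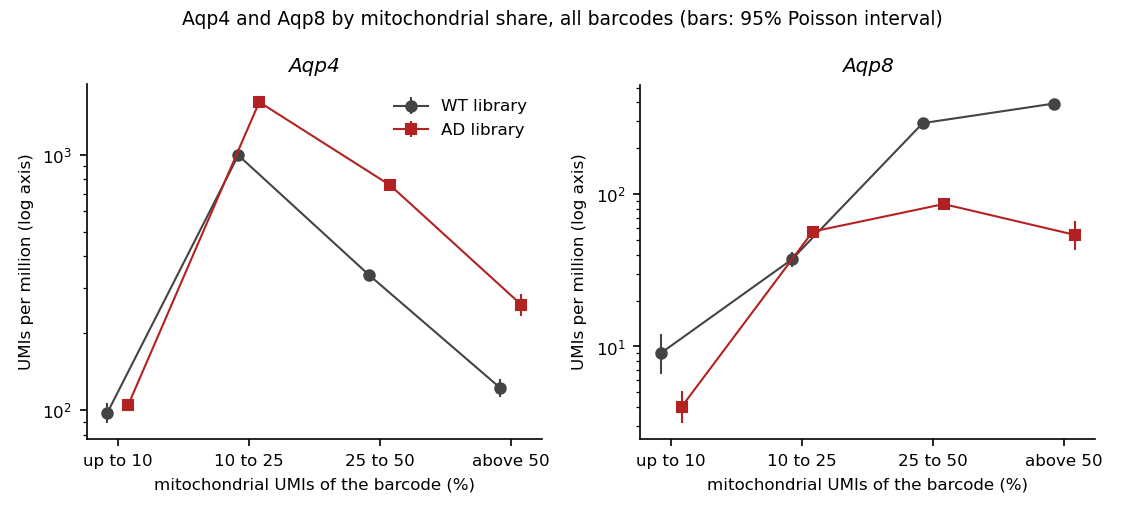
Level in CPM (log axis) of Aqp4 (left) and Aqp8 (right) over all barcodes, by the percentage of mitochondrial UMIs in the barcode, with the WT library as circles and the AD library as squares; bars give the 95% Poisson interval. Aqp8 in WT climbs to 392.4 in the last group while AD stays at or below 86.0, and Aqp4 peaks from 10% to 25% in both libraries.

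When the limit was moved to 50%, the Aqp8 ratio over epithelial-like cells reversed, to -1.59 (-1.69 to -1.5) from 2922 WT and 1221 AD UMIs, and with no limit it was -1.97 (-2.06 to -1.88). At 50% Aqp8 was among the genes at least 2-fold lower in AD epithelial-like cells, 5.56% of 14472 genes. Aqp7 passed 2-fold higher there, as did 3.32% of genes, from 9 and 26 UMIs (log2 1.15, 0.06-2.47), and was at 1.13 (0.10-2.33) with no limit. Aqp4 moved further toward AD at the same limits, with log2 ratios of 0.92 and 1.13. The Aqp1 ratio in endothelial-like cells stayed between -1.87 and -1.69 over the 4 limits.

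**Figure D3:**
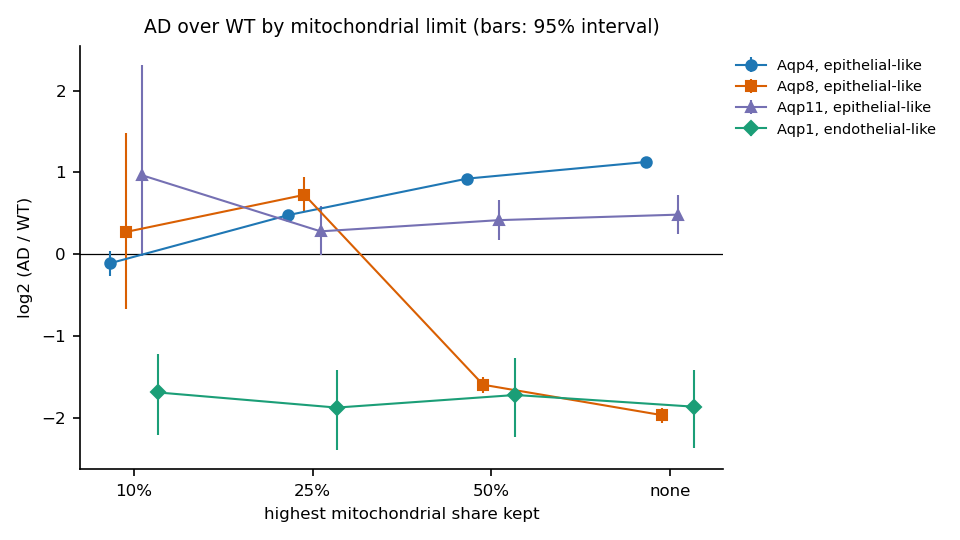
log2 ratio of AD over WT for Aqp4, Aqp8 and Aqp11 in epithelial-like cells and Aqp1 in endothelial-like cells, against the highest mitochondrial share kept; bars give the 95% interval for counting error. Aqp8 crosses zero between the 25% limit (0.73) and the 50% limit (-1.59), while Aqp1 stays near its value of -1.87.

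The added WT cells included a distinct set. Of the epithelial clusters at the 50% limit, the one with the highest Aqp8 level, chosen for that reason, held 311 WT and 10 AD cells, and since nearly all of it is from 1 library it may be that library and not a cell type. It was led by Ifit1bl1, Saa1, Car4, Cyp2d9 and Duox2, had 8 of 16 colonocyte markers, and had a median of 43.8% mitochondrial UMIs in WT, with 9 WT cells at or under 25%. It held 2317 Aqp8 UMIs in WT, 46.5% of all in that library, with a median of 6 per cell and a UMI in 88.7% of its cells. The 10 AD cells held 44 Aqp8 UMIs with a median of 3. With no mitochondrial limit a cluster with the same leading gene held 620 WT and 10 AD cells. Aqp4 was nearly absent from the cells at the 50% limit: 26 UMIs in the 311 WT cells (6.43% of cells) and 2 in the AD cells. The other colonocyte-like clusters with at least 20 cells in each library had 289 WT cells, with 395 Aqp8 and 6657 Aqp4 UMIs, and 624 AD cells, with 1130 and 16648.

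Within the WT library, in CPM of nuclear-encoded UMIs, Aqp8 stood at 3660 in that cluster and 121.6 in the other colonocyte-like clusters. The cells of these sets were unlike in quality, with medians of 3227 and 11650 UMIs and of 1004 and 2688 genes. Their median mitochondrial shares were 43.8% and 31.7%. Aqp4 stood at 41.1 and 2050, and Aqp11 at 1.58 (1 UMI) and 24.9 (81 UMIs, a ratio of 0.0633 with an interval of 0.00158-0.363). So 1 member was at least 2-fold higher and 2 were lower, against 16.1% and 22.1% of 8272 genes, as a description of a cluster chosen for its Aqp8. In single cells, of 200 WT epithelial-like cells with 5 or more Aqp8 UMIs at the 50% limit, 174 had no Aqp4 UMI and 12 had 5 or more. Of 81 such AD cells, 12 had none and 49 had 5 or more. The cluster chosen for its Aqp8 held 175 of the 200 WT cells, 166 of the 174 and 1 of the 12. So the WT counts largely repeat that cluster. At the 25% limit 11 WT and 53 AD cells had 5 or more Aqp8 UMIs, and 7 and 41 of them had 5 or more Aqp4 UMIs.

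**Figure D4:**
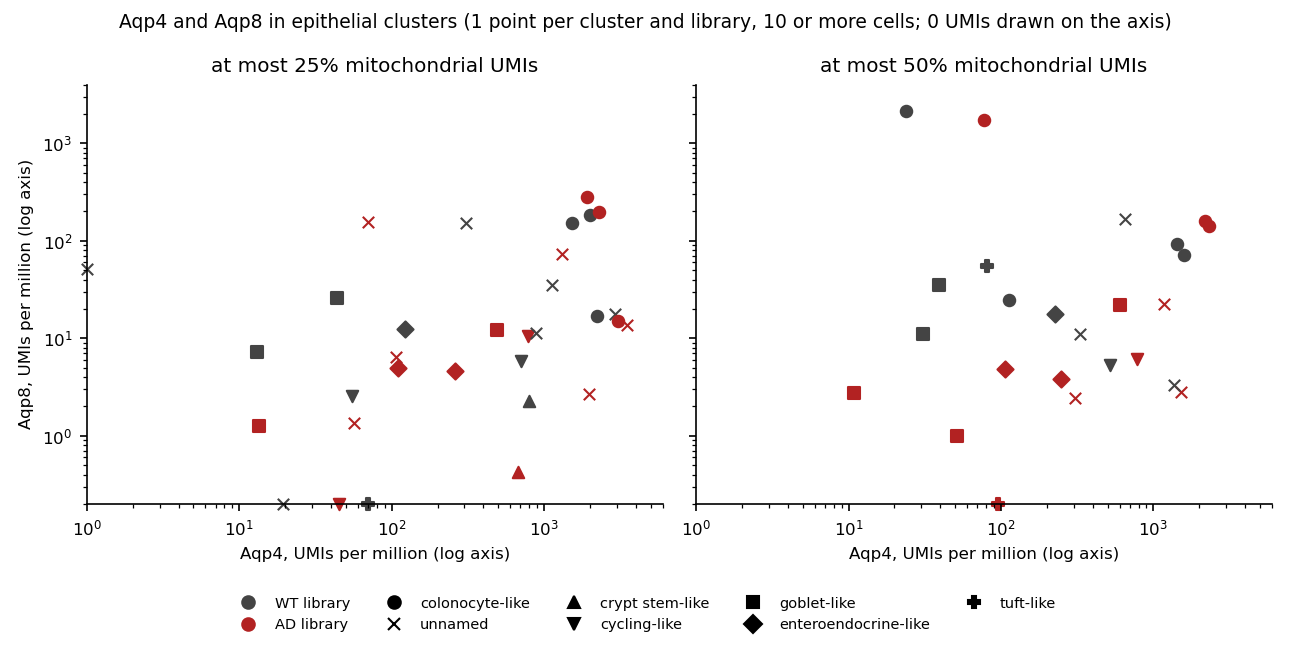
Aqp4 (horizontal) and Aqp8 (vertical) in CPM, on log axes, for each epithelial cluster and library with 10 or more cells, at the 25% (left) and 50% (right) mitochondrial limit; colour gives the library and shape the class, and clusters with no UMI are drawn on the axis. At the 50% limit 1 colonocyte-like cluster stands alone at the top, with Aqp8 at 2116 (WT) and 1712 (AD) and Aqp4 at 23.7 and 77.8.

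Ion transporters and oxidant enzymes of the fixed lists split between the same WT clusters, whose genes were used to make them. Where Aqp8 was high, 6 of 13 absorptive transport genes with enough UMIs passed 2-fold upward and 3 downward. Over all 8272 genes of this comparison the shares were 16.1% upward and 22.1% downward, so the 3 downward ones are near the share of all genes. Higher were the membrane carbonic anhydrase Car4 (15.5-fold) and the proton-potassium pump Atp12a (6.71-fold), and lower were the soluble carbonic anhydrases Car1 (9.26-fold) and Car2 (10.9-fold). Of 8 hydrogen peroxide genes 3 were higher and 3 lower: the peroxide-producing oxidase Duox2 (34.9-fold), its maturation factor Duoxa2 (33.1-fold) and the nitric oxide synthase Nos2 (85.8-fold) were higher, and catalase, Cat, was 4.45-fold lower. The median log2 ratio was 0.28 for the absorptive genes and 0.25 for the peroxide genes, against -0.06 over all 8272 genes. Colonocyte markers, which share Slc26a3, Car1 and Car4 with the absorptive list, had 7 of 15 higher and 2 lower (median 0.83). Higher were 1 of 6 secretion genes (median -0.76), 0 of 7 osmotic (-0.77) and 0 of 9 mineralocorticoid genes (-0.16). For glycerol genes it was 3 of 12 (-0.01), and for Aqp4 anchoring 1 of 8 (0.19).

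Aqp8 was also counted outside the epithelium, and in the opposite direction to Aqp4. Kept non-epithelial cells held 87 Aqp8 UMIs in WT and 36 in AD, and Aqp8 was 67.4% (58.6-75.4) of their Aqp4 and Aqp8 UMIs in WT and 3.65% in AD. Over barcodes above 25% mitochondrial UMIs that share was 55.4% and 10.9%, and in kept epithelial-like cells 2.90% and 3.42%. Among cells outside the epithelium with at most 4 UMIs of either gene it was 58.8% (47.6-69.4) and 6.10%. So in WT the share outside the epithelium was nearer to that of the high-mitochondrial barcodes, and in AD to that of the kept epithelium. The source of these UMIs was not tested. In fibroblast-like cells Aqp8 had 53 UMIs in WT and 9 in AD (51.5 and 3.03 CPM, log2 -4.02), past 2-fold lower against 1.86% of genes. There 1 WT cell held 24 UMIs and 5 cells held 81.1%. Without the 5 cells with most Aqp8 in each library 10 and 4 UMIs were left and the log2 ratio was -2.80 (-5.02 to -1.10). At the 50% limit the fibroblast-like cells held 49 and 35 UMIs, and the log2 ratio was -1.95 (-2.62 to -1.30).

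Aqp1, a water channel of endothelium and red cells, was highest in the endothelial clusters. The 87 WT endothelial-like cells held 216 UMIs, or 768 CPM (669-877), and the 79 AD cells 44, or 208 (151-279). The log2 ratio was -1.87 (-2.39 to -1.41), past 2-fold lower, as were 3.58% of 3132 genes in the class. Few cells carried these UMIs: 13 WT cells (14.9%) and 7 AD cells (8.86%), or 10.5% (4.66-19.7) and 6.15% (1.70-15) when thinned to 1000 UMIs (median depths 2531 and 2027), against 1.23% and 0.198% in lymphocyte-like cells (thinned, 1 of 227 cells and 0 of 428, which allows up to 0.701%). In WT 1 cell held 131 of the 216 UMIs (60.6%), the next held 43, and the other 11 held 1 to 11. In AD 4 cells held 10 or 11 and the other 3 held 1. So the ranges of the libraries overlap, apart from 2 WT cells. Without the cell with most Aqp1 in each library, 85 and 33 UMIs were left, at 320 (255-395) and 158 (109-222) CPM, and the log2 ratio was -1.0 (-1.64 to -0.42). Leaving out cells above 30000 UMIs regrouped the cells, gave 216 and 69 UMIs and a ratio of -1.30 (-1.72 to -0.91).

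**Figure D5:**
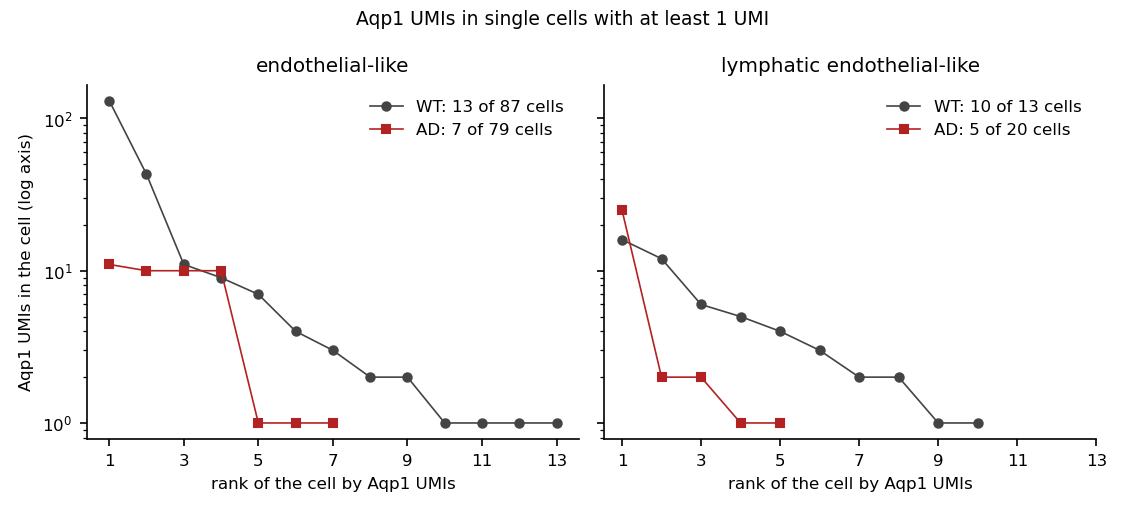
Aqp1 UMIs per cell (log axis) in endothelial-like (left) and lymphatic endothelial-like (right) cells with at least 1 UMI, ranked from the highest, with the WT library as circles and the AD library as squares. The WT endothelial-like curve starts at 131 and 43 UMIs, while the other WT cells and all AD cells of that panel are at 11 or fewer.

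The lymphatic endothelial-like cluster was small, with 13 WT and 20 AD cells. By their own markers most of its AD cells were not endothelial: 13 of the 20 held 0 or 1 endothelial-marker UMIs and 13 to 51 epithelial-marker UMIs each, and no Aqp1. The 10 WT and 7 AD cells with 3 or more endothelial-marker UMIs held 51 and 31 Aqp1 UMIs, or 1334 (993-1754) and 1048 (712-1488) CPM, and these intervals overlap. Of the 31 AD UMIs 25 were in 1 cell. Over such cells of both clusters the log2 ratio was -1.40 (-1.79 to -1.03), and in the endothelial-like cluster alone, where 86 of 87 WT and 74 of 79 AD cells held 3 or more, the levels were 769 and 212 CPM. The minimum of 3 was chosen after these values were seen. Endothelial markers were lower in the AD endothelial-like cells for 10 of 12 genes, and their sum was 11448 and 8922 CPM. The von Willebrand factor gene Vwf had a log2 ratio of -0.97, the growth factor receptor Kdr -0.69 and the junction protein Pecam1 -0.45, while Ptprb and Cldn5 had 0.15 and 0.33. Markers of other stroma were higher in the AD cells, with fibroblast markers at 224 and 1251 and smooth muscle or pericyte markers at 686 and 2266 CPM. Plasma cell markers stood at 597 and 27801 CPM. The part of these RNAs in the Aqp1 difference was not tested. Red cell markers summed to 46 and 8 UMIs in endothelial-like cells (164 and 37.8 CPM, 4 of 7 markers in each), while the erythroid-like cluster, with 11 WT and 8 AD cells, held no Aqp1 UMI.

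In the epithelium Aqp1 was low and lay in crypt and goblet cells rather than in surface cells. It stood at 31.6 (17.3-53.1) and 43.3 (35.3-52.7) CPM in crypt stem-like cells, 35.9 (24.1-51.6) and 27.6 (21.5-34.9) in goblet-like cells, and 27.5 (22.1-33.7) and 35.0 (25.1-47.5) in cycling-like cells. The intervals of these classes overlap. The unnamed epithelial cluster led by Reg4 and Best2 held 0 of 207928 UMIs in WT, which allows up to 14.4 CPM (3 UMIs), and 29.7 (22.9-37.7) in AD. In colonocyte-like cells none was found among 1744741 WT UMIs, which allows up to 1.72 CPM, and AD held 1.07. Aqp8, in contrast, was highest in colonocyte-like cells, as the plot of levels by class shows. A UMI was seen in 40.0% of WT and 39.1% of AD crypt stem-like cells (10.5% and 4.03% thinned; median depths 22962 and 12912), against 0 of 44, which allows up to 6.82%, and 0.621% of plasma-like cells. Over epithelial-like cells the levels, 18.0 and 18.4, did not differ beyond counting error (log2 0.03, -0.25 to 0.32).

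Aqp11, a channel of intracellular membranes, was low, with most of its UMIs in the epithelium. Its level was 25.2 (18.3-33.9) and 28.4 (23.7-33.6) CPM in colonocyte-like cells, 14.3 and 15.4 in cycling-like, 11.3 and 15.5 in crypt stem-like and 9.91 and 5.52 in goblet-like cells. Endothelial-like cells, with 10 and 7 UMIs, stood at 35.6 (17.1-65.4) and 33.1 (13.3-68.1). In fibroblast-like cells it was 6.81 and 5.39, and in plasma-like cells 0 and 0.583. The other immune classes were nearly empty, with 0 and 2 UMIs in B-like and 0 and 1 in lymphocyte-like cells. Macrophage or monocyte-like cells held 2 and 0. Over epithelial-like cells it was 15.2 (12.7-18.0) and 18.5 (16.5-20.6), a log2 ratio of 0.28 whose interval (-0.01 to 0.59) includes zero. At the 50% limit it was 0.42 (0.17-0.67), and centred on the median gene of the class 0.33 (0.03-0.64). At the 10% mitochondrial limit the ratio was 0.97, from 8 and 63 UMIs, with an interval of -0.02 to 2.31.

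The aquaglyceroporins were too few for a level in most classes. Aqp3, which in many epithelia lies in the basolateral membrane, had 0 UMIs among 8500005 in WT epithelial-like cells and 1 among 17921753 in AD. It was counted in macrophage or monocyte-like cells (7 and 3 UMIs), lymphocyte-like cells (6 and 7) and AD plasma-like cells (6). Over all kept cells outside the epithelium it had 14 and 16 UMIs, where the log2 ratio was -1.68 (-2.80 to -0.52). There 4 of the 7 members were past 2-fold in either direction, Aqp1, Aqp3, Aqp4 and Aqp8, against 14.5% of 14328 genes, in a pool whose make-up differed: plasma-like cells were 44 of 1007 in WT and 805 of 3227 in AD. Over all kept cells Aqp1 (log2 -1.41, -1.60 to -1.21) and Aqp3 (-1.10, -2.20 to 0.04, from 14 and 17 UMIs) were past 2-fold lower, and 9.02% of genes passed in either direction. Aqp3 was within 2-fold at the 50% limit (-0.77) and with none (-0.54), Aqp1 was past it at 50% (-1.02) and within it with none (-0.88), and Aqp8 was past it at both (-1.97 and -2.35). Aqp7, the glycerol channel of fat cells and capillaries, had 3 and 5 UMIs in endothelial-like cells (10.7 and 23.6 CPM) and 5 and 22 in epithelial-like cells (log2 0.96, -0.38 to 2.82). Aqp9, the glycerol channel of liver and white blood cells, had 8 and 7 UMIs in lymphocyte-like, 5 and 6 in macrophage or monocyte-like and 0 and 7 in fibroblast-like cells. Over all kept cells its log2 ratio was -0.56 (-1.42 to 0.38). At the 25% limit none of these 3 genes had a difference beyond counting error in a single named class, apart from Aqp3 in macrophage or monocyte-like cells (log2 -2.32, -5.03 to -0.31, from 7 and 3 UMIs).

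Genes that work with the channels were taken from lists fixed for this description. In epithelial-like cells none of 13 absorptive sodium and chloride transport genes differed 2-fold, with a median log2 ratio of 0.23 against -0.05 for all 13223 genes. The widest were Atp12a (-0.56), the sodium channel subunit Scnn1a (0.55), the butyrate transporter Slc5a8 (0.51) and Car1 (-0.51). None of 10 genes of the mineralocorticoid and vasopressin response (median 0.22), 8 of osmotic stress and cell volume (0.09) and 10 of Aqp4 anchoring and trafficking (0.11) differed 2-fold either. Of 8 secretory channel genes 2 were higher, Best2 (1.48) and the chloride channel Ano1 (1.23), and Clca4b was lower (-1.41). Of 12 glycerol and triglyceride genes the lipase Mgll was lower (-1.40), and of 8 peroxide genes the peroxiredoxin Prdx6 was higher (1.10). Over all 13223 genes in these cells, 2.94% passed 2-fold upward and 5.17% downward. With so few genes past 2-fold, lists this short cannot be told apart from those shares. The cluster led by Reg4 and Best2 held 12 WT and 152 AD cells, and its part in the Best2 ratio was not tested.

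Across 26 points, each a class in a library, the genes with the level most like Aqp4 were Gsdmc4 (r = 0.98), Hao2 (0.95) and Slc6a14 (0.95), on log2 CPM with 1 added, by Pearson's r. Those most like Aqp8 were Trpm6 (0.75), Car4 (0.72) and Cyp2d34 (0.71), a looser likeness than for Aqp4. For Aqp1 they were Clca3a1 (0.94), Imp3 (0.87) and Uqcc3 (0.86), and for Aqp11 Gm5444 (0.89), Cfb (0.86) and 4930422I22Rik (0.86). Over 20 points from epithelial clusters Aqp4 was nearest to Slc6a14 (0.99), Cldn8 (0.99) and Hao2 (0.98), Aqp8 to Saa1 (0.94), Myo15b (0.89) and Car4 (0.88), Aqp1 to Srm (0.90), Slc12a2 (0.89) and Chst4 (0.88), and Aqp11 to Rab8a (0.82), Mid2 (0.81) and Vdac2 (0.81). The points share their library and differ in depth, so these values only describe.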

How the data were processed

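Both libraries were 10x single-cell RNA libraries of digested colon. The barcodes as given are 20 bases long, and the kit version was not settled. The values the authors deposited are UMI counts, whole numbers for each gene in each barcode, not normalized. The submitters' processing notes name Cell Ranger 3.0.1, STAR, Seurat 3.0.2 and the mm10 build; the strand setting is not given in the sources used here. No deposited barcode held under 500 UMIs. Positions come from the GRCm38 annotation, matched by gene identifier; some other identifiers in the files are absent from it.

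Barcodes needed 500 UMIs and 200 genes, and at most 25% of UMIs could be mitochondrial. Scrublet, set to a rate of 0.06, called 4 doublets in WT and 4 in AD; it is taken not to have worked, so doublets remain. Cells were clustered without aquaporin genes in scanpy 1.11.5 with leidenalg 0.10.2 (scaling to 10000 UMIs, 2000 variable genes, 30 components, 15 neighbours, resolution 1). Clusters were named from 246 markers (3 not in the files). A name needed 3 or more markers, and 0.3 of its list, in 10% of cells and 4-fold higher (2-fold within the epithelium). Clusters named colonocyte, goblet, enteroendocrine or tuft counted as epithelial-like. Unnamed clusters did so with 6000 CPM or more of epithelial and under 20000 CPM of plasma markers. These naming limits were set after seeing the data.

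UMIs were summed by class and library, with exact Poisson, Clopper-Pearson and conditional intervals. Ratios had 0.5 counts added to each sum. Only classes with 20 or more cells per library were set against the share of all genes past 2-fold. Smaller groups, such as the lymphatic endothelial-like cells and some epithelial clusters, are described by their levels. The ratio script was tested on simulated data. All members are named; the 3 most like genes (200 UMIs or more) are given for members with 100 UMIs or more, and list genes come from the 4 with the largest ratio. Members and lists were chosen with earlier results of these data known. Promoter sequences matched 6 of 7 members. 66 alternatives were planned and 10 added after seeing the data. Versions were matplotlib 3.10.9, igraph 0.11.9, scikit-learn 1.9.0, pandas 2.3.3, scipy 1.17.1, numpy 2.4.6 and Python 3.11.15.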

Additional observations from a re-analysis of the deposited data

How the results depend on the processing

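Of 68 values under other settings 45 planned and 5 added ones stayed within counting error of the reported value, 11 and 5 moved and 2 reversed. The Aqp8 log2 ratio in epithelial-like cells, 0.73, was 0.27 at a 10% mitochondrial limit, reversed to -1.59 at 50% and -1.97 with no limit, and was 0.009 without cells above 30000 UMIs. The Aqp4 ratio, 0.48, was -0.11 at 10%, 0.92 at 50%, 1.13 with no limit, 0.73 without cells above 30000 UMIs and 0.53 when centred on the median gene. Among alternatives chosen after seeing the data it was 0.44 per nuclear-encoded UMI and 0.58 without the 5 cells with most Aqp4. The Aqp11 ratio, 0.28, was 0.97 at 10%. The Aqp1 ratio in endothelial-like cells, -1.87, was -1.30 without cells above 30000 UMIs and -1.003 without the cell with most Aqp1 in each library, and -1.40 over cells of both endothelial clusters with 3 or more endothelial-marker UMIs. In fibroblast-like cells the Aqp8 ratio moved from -4.02 to -2.80 without its 5 top cells. The share of epithelial genes past 2-fold, 8.11%, was 13.1% with a minimum of 10 UMIs and 25.7% with none. Aqp3 in epithelial-like cells had 3 or fewer UMIs in each library under each setting, so it gave no ratio. The cause of these moves was not tested. Another cluster resolution, keeping called doublets and clustering with the aquaporins moved none of the 7 ratios beyond counting error. No paired analysis was possible because each group holds 1 library, numbered 1. Aqp3, Aqp7 and Aqp9 had few UMIs per class, and the part of depth in this was not tested.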
